A study of Mus musculus with 12 samples.

Results

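Guanylate-binding proteins (GBPs) and immunity-related GTPases (IRGs) are cytosolic enzymes that cells make in response to interferon. This report describes 10 of them in preosteoclasts: Gbp2, Gbp3, Gbp5, Gbp6, Gbp7 and Gbp9 among the GBPs, and Igtp, Irgm1, Irgm2 and Iigp1 among the IRGs. They were chosen by gene symbol, as a set of targets more typical of interferon gamma than of type I interferon, and are 10 of the 57010 genes in the count table. Each of the 10 symbols matched 1 row, and all 10 were among the 15425 genes with enough reads to be tested.

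RNA was sequenced from 12 cultures of bone marrow from female mice, which were kept with RANKL and M-CSF for 2 days so that osteoclast formation began. LSD1WT mice were the controls, and LSD1cKO mice lacked LSD1, a histone demethylase encoded by Kdm1a, in cells that express LysM-Cre, a driver active in myeloid cells (monocytes, macrophages and granulocytes). Both genotypes were sampled in 3 cultures, with 2 libraries per condition: mandible marrow of mice that had carried silk ligatures at maxillary molars for 7 days, femur marrow of ligated mice, and femur marrow of unligated mice. The labels name 9 mice (5 LSD1WT and 4 LSD1cKO), and 3 of these (1 LSD1WT and 2 LSD1cKO) were sampled at both sites. The labels give an age of 2 months, and the methods of the study give an older age for these cultures. Whether the LSD1WT mice carried Cre or floxed alleles is not given in the sources used here.

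Some features of the libraries bear on the values below. Kdm1a RNA lay between 15.6 and 24.3 CPM (counts per 1000000 reads) in the 6 LSD1cKO libraries and between 61.2 and 71.3 CPM in the 6 LSD1WT libraries (log2 fold change of −1.82 ± 0.11 SE, adjusted p = 3.56e-05, edgeR). The 2 LSD1WT femur libraries numbered 2, one ligated and one unligated, had almost no osteoclast RNA: the summed level of 19 osteoclast genes was 1111 and 1132 CPM there, against 14503 to 45748 CPM in the other 10 libraries. Acp5 and Ctsk, the osteoclast phosphatase and cathepsin, were at 8.31 and 5.90 CPM in the ligated one and at 26.1 and 17.1 CPM in the unligated one. The label of LSD1WT mandible replicate 3 says mandible while its library name says femur, and it was nearly identical to LSD1WT mandible replicate 1: the pair differed by 1.25 times counting error, against 2.44 to 11.1 times in the other conditions. The femur ratios of the members are also given against LSD1WT replicate 1 alone, a single library. For other genes and lists this was done only in part, so values given without it may also rest on the replicate 2 libraries.

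GBPs are large, dynamin-like GTPases that assemble on the membranes of pathogen-containing vacuoles and of cytosolic bacteria, where they help to break them open and to expose their contents to inflammasomes. IRGs are smaller GTPases with a division of labour: Irgm1, Irgm2 and Igtp (also called Irgm3) sit on host membranes and keep the others inactive there, whereas effectors such as Iigp1 load onto vacuoles. Interferon gamma induces both families through a palindromic promoter element called GAS, and through Irf1, which binds an interferon-stimulated response element (ISRE). Type I interferon induces many of the same genes through the ISRE.

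The promoter sequences are shown because the members moved together, as described below, and because the 2 kinds of interferon element can be read in them. RefSeq windows of the 250 bases before the start (GRCm38.p6) were found for 7 of the 10 members, and Gbp6, Gbp9 and Iigp1 had none. Both strands were searched for the ISRE core GAAANNGAAA, which is TTTCNNTTTC on the other strand, and for GAS, TTCNNNGAA. In the windows printed here, all on the plus strand, capitals mark these matches. They are Gbp2 (chr3:142620413-142620662), Gbp7 (chr3:142530086-142530335), Igtp (chr11:58199306-58199555) and Irgm2 (chr11:58214727-58214976).
Gbp2: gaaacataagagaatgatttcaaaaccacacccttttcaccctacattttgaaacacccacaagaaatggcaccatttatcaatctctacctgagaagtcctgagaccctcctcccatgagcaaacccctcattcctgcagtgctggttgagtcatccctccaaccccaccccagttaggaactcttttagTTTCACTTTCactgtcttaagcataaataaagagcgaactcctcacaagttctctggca
Gbp7: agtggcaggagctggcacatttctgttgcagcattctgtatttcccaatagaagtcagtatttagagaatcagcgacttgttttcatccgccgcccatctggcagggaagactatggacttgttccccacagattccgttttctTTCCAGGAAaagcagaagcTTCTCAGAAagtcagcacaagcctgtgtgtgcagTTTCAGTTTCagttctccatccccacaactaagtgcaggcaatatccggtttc
Igtp: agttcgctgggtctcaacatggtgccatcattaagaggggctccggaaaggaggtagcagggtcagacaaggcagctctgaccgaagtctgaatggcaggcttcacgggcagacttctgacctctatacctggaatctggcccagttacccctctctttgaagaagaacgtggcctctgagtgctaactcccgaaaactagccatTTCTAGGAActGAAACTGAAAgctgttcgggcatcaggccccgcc
Irgm2: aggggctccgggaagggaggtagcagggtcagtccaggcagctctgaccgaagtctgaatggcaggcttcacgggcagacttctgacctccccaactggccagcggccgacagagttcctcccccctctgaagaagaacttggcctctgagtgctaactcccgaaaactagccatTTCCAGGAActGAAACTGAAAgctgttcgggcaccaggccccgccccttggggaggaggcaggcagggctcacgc
The ISRE core lay 59 bases before the start in Gbp2, 53 in Gbp7, 34 in Igtp and 64 in Irgm2. Gbp2 held no GAS match, Gbp7 held 2, and Igtp and Irgm2 held 1 each, with 2 bases between the GAS and the ISRE in both of them. Igtp and Irgm2 start 15421 bases apart, and their windows share an identical run of 55 bases. The 7 members had 8 windows, as Gbp3 had another one that held neither element. Of these 8, 7 held the ISRE core, 1 for each member, and 4 held GAS (Gbp5, Gbp7, Igtp and Irgm2). Of 32851 mouse promoter windows of the same length, 2.98% held the ISRE core, 7.02% held GAS and 0.332% held both. A match is a description of the letters and not a measured binding site.

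Gbp2 and Gbp5 carry a C-terminal motif for a lipid anchor, which fixes them to membranes, and Gbp5 also promotes assembly of the NLRP3 inflammasome. Gbp2 (ENSMUSG00000028270, chromosome 3) was at 1.31 and 1.17 CPM in LSD1WT mandible cultures and at 4.16 and 8.78 CPM in LSD1cKO mandible cultures. In femur cultures of ligated mice the LSD1WT values were 9.06 and 46.6 CPM and the LSD1cKO values 141 and 150.1 CPM, and in those of unligated mice 14.5 and 9.15 CPM stood against 87.3 and 35.4 CPM. The genotypes did not overlap in any of the cultures, and the LSD1cKO mean was 5.21, 5.22 and 5.20 times the LSD1WT mean in mandible, ligated femur and unligated femur. Against LSD1WT replicate 1 alone the femur ratios were 16.1 when ligated and 4.24 when unligated, so their likeness rested on the replicate 2 libraries.

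Gbp5 (ENSMUSG00000105504, chromosome 3) was scarcer. It was at 1.47 and 1.39 CPM in LSD1WT mandible cultures and at 1.48 and 3.89 CPM in LSD1cKO mandible cultures, at 5.89 and 16.0 against 42.9 and 52.4 CPM in ligated femur, and at 8.40 and 3.23 against 32.2 and 13.5 CPM in unligated femur. All LSD1cKO values were above the LSD1WT values of the same culture, but LSD1cKO mandible replicate 1 exceeded the nearest LSD1WT library only in the third digit. The ratios of means were 1.88, 4.37 and 3.93, and the femur ones became 8.10 and 2.72 against LSD1WT replicate 1 alone.

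Gbp3 and Gbp7 lie beside Gbp2 on chromosome 3, in the same cluster, and Gbp7 is known for its part in assembling the phagocyte oxidase on vacuoles. Gbp3 (ENSMUSG00000028268) was at 6.77 and 7.67 CPM in LSD1WT mandible cultures against 11.6 and 15.8 CPM in LSD1cKO. It was at 14.1 and 40.6 against 98.3 and 105 CPM in ligated femur, and at 16.3 and 7.08 against 58.8 and 43.5 CPM in unligated femur. The genotypes did not overlap in any culture, with ratios of 1.89, 3.71 and 4.38, or 7.19 and 3.14 in femur against replicate 1 alone.

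Gbp7 (ENSMUSG00000040253) stood apart from the other members in the mandible. It was at 33.7 and 36.0 CPM in LSD1WT mandible cultures and at 31.0 and 36.9 CPM in LSD1cKO mandible cultures, so the genotypes overlapped and the ratio of means was 0.975. The ligated femur values were 62.6 and 72.8 CPM in LSD1WT against 150.5 and 156 CPM in LSD1cKO, and the unligated femur values 61.5 and 18.2 CPM against 124 and 71.6 CPM, ratios of 2.26 and 2.45 without overlap (2.45 and 1.59 against replicate 1 alone). Its 50-base stretches were shared with other genes for 12.7% of its length, mainly with the overlapping gene model Gm43802, which had no counts.

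Gbp6 and Gbp9 lie in the other GBP cluster, on chromosome 5. Gbp9 (ENSMUSG00000029298) was at 4.16 and 5.39 CPM in LSD1WT mandible cultures against 9.20 and 13.4 CPM in LSD1cKO, at 10.2 and 31.9 against 75.9 and 84.1 CPM in ligated femur, and at 13.4 and 17.4 against 45.4 and 61.7 CPM in unligated femur. No culture showed overlap, and the ratios were 2.36, 3.80 and 3.48, the femur ones becoming 7.88 and 3.98 against replicate 1 alone. Gbp6 (ENSMUSG00000104713) was the scarcest GBP member, with no reads in either LSD1WT mandible library, none in LSD1cKO mandible replicate 1 and 10 reads (0.309 CPM) in LSD1cKO mandible replicate 2. Its femur values were 0.388 and 1.03 CPM in LSD1WT against 3.42 and 5.13 CPM in LSD1cKO when ligated, and 0.344 and 0.248 against 2.49 and 2.42 CPM when unligated. The femur groups did not overlap (6.04-fold and 8.30-fold, or 11-fold and 7.15-fold against replicate 1 alone), while for the mandible only a bound can be given, at least 1.33-fold higher in LSD1cKO with 3 counts allowed for each 0. The Gbp6 values are uncertain in another way, since 70.7% of its 50-base stretches occur in other genes, mostly in the overlapping model Gm43302, whose highest count was 1.

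The regulatory IRGs Igtp, Irgm1 and Irgm2 all lie on chromosome 11, where Igtp and Irgm2 are close neighbours that share 162 exonic bases, so reads there cannot be assigned to one of them with certainty. Irgm1 (ENSMUSG00000046879), which is also needed for autophagy of intracellular bacteria, was at 13.2 and 14.8 CPM in LSD1WT mandible cultures against 24.9 and 41.7 CPM in LSD1cKO. It was at 35.5 and 93.6 against 187 and 227 CPM in ligated femur, and at 39.6 and 65.2 against 147 and 146 CPM in unligated femur. The genotypes did not overlap in any culture, and the ratios were 2.38, 3.21 and 2.80, or 5.83 and 3.70 in femur against replicate 1 alone.

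Irgm2 (ENSMUSG00000069874) was at 3.75 and 4.11 CPM in LSD1WT mandible cultures and at 6.49 and 14.4 CPM in LSD1cKO mandible cultures. The ligated femur values were 17 and 73.9 against 107 and 124 CPM, and the unligated femur values 23.3 and 41.4 against 88.9 and 66.5 CPM. Again no LSD1cKO library was below an LSD1WT library of its culture (2.66-fold, 2.54-fold and 2.40-fold). Against LSD1WT replicate 1 alone the femur folds were 6.77 and 3.34. Igtp (ENSMUSG00000078853) was at 3.26 and 3.27 against 5.77 and 9.92 CPM in mandible, at 7.15 and 31.8 against 50.9 and 61.9 CPM in ligated femur, and at 10.6 and 17.6 against 39.7 and 35.8 CPM in unligated femur. Its ratios of 2.40, 2.90 and 2.68, also without overlap, were close to those of its neighbour. Against replicate 1 alone its femur ratios were 7.89 and 3.56.

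Iigp1 (ENSMUSG00000054072, chromosome 18) is the effector that is best known for disrupting the vacuole of Toxoplasma. In mandible cultures it was almost unread, with 2 and 0 counts in LSD1WT (0.0816 and 0 CPM) and 2 and 15 counts in LSD1cKO (0.0687 and 0.464 CPM). These groups overlapped, and the ratio of the summed counts, 17 against 2, was 7.16 with a 95% exact interval of 1.70 to 63.9 that covers counting error only. Its femur values were 1.26 and 14.8 CPM in LSD1WT against 29.6 and 33.9 CPM in LSD1cKO when ligated, and 3.13 and 1.82 against 12.6 and 8.58 CPM when unligated, without overlap (3.96-fold and 4.27-fold). Against replicate 1 alone these folds were 25.2 and 3.38, the first being the member ratio that moved most.

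**Figure D1:**
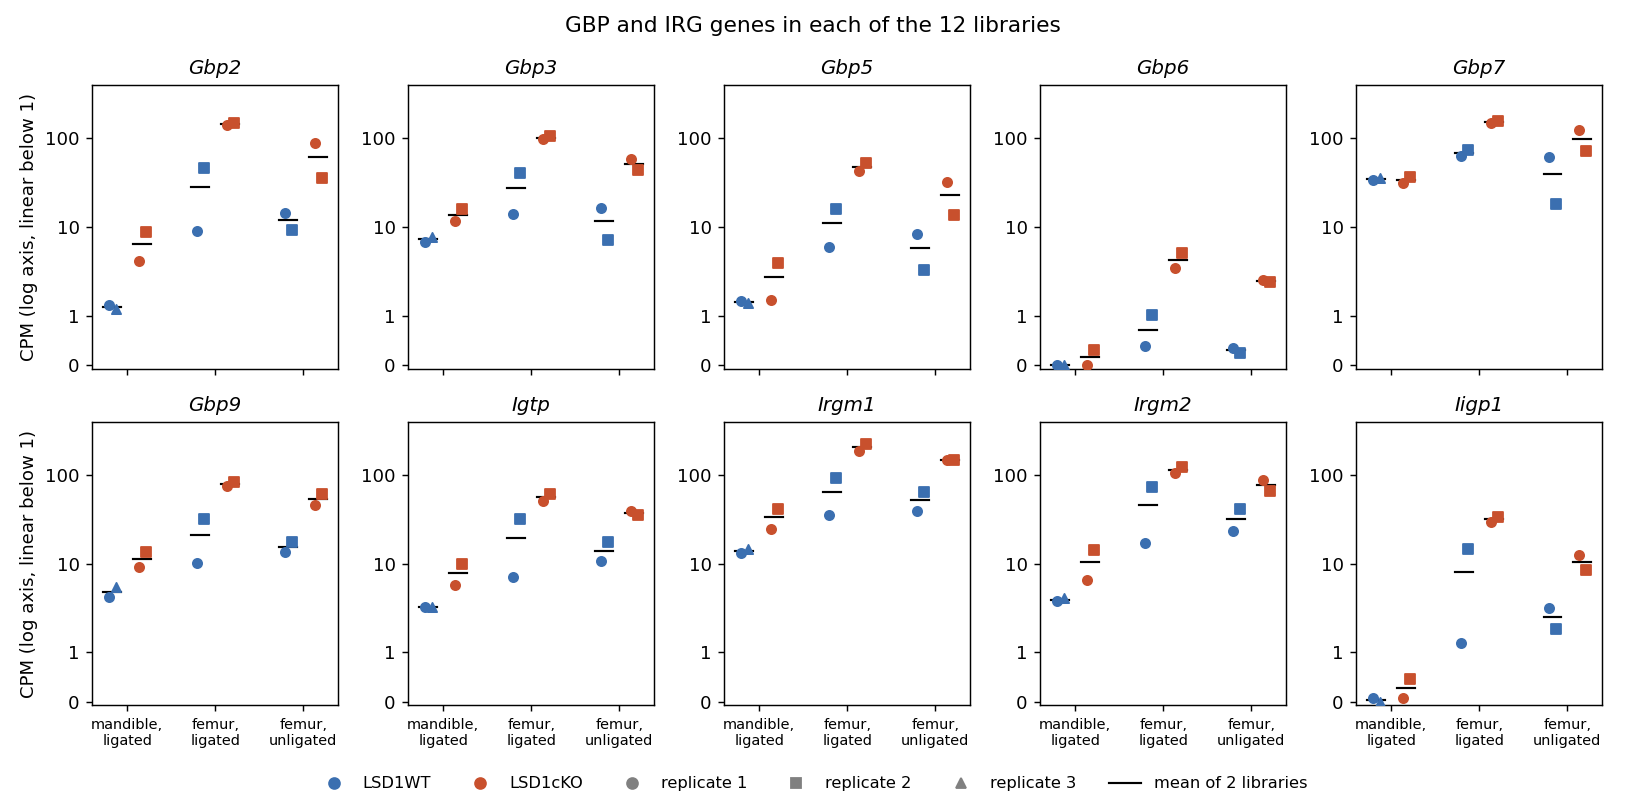
Levels of the 10 members in the 12 libraries, in CPM on a log axis that is linear below 1, with 1 point per library and a bar at the mean of the 2 libraries of a condition. The 2 LSD1cKO points lie above the 2 LSD1WT points in both femur cultures for all 10 genes, and in the mandible for 7 of them.

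The first comparison asked whether loss of LSD1 altered these GTPases over all 3 cultures. Of the 10 members, 7 were higher in LSD1cKO at an adjusted p under 0.05 (edgeR quasi-likelihood test with culture as a term, Benjamini-Hochberg over 15425 genes): Gbp2, Gbp3, Gbp5, Gbp6 and Gbp9 of the GBPs, and Irgm1 and Igtp of the regulatory IRGs. Of all genes tested, 3.00% were called higher in this comparison. All 10 members were higher in LSD1cKO and had an unadjusted p under 0.05, where 8.31% of all genes were higher with such a p. Their median log2 fold change was 1.66, against −0.06 for all genes. Because these are whole cultures, fewer cells of a type and less RNA per cell cannot be told apart in any of these values.

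By size, Gbp6 led with a log2 fold change of 2.95 ± 0.59 (SE, adjusted p = 0.0218), followed by Gbp2 at 2.38 ± 0.39 (adjusted p = 0.00896). Gbp9 and Gbp3 rose alike, by 1.66 ± 0.27 (adjusted p = 0.00837) and 1.66 ± 0.32 (adjusted p = 0.0197). Irgm1 rose by 1.47 ± 0.24 (adjusted p = 0.00888). These 5 calls changed least when single libraries were left out. Gbp2, Gbp9 and Irgm1 kept the call each time, and Gbp3 and Gbp6 lost it only without LSD1cKO femur ligated replicate 2. Over 24 other settings of the fit, these among them, Gbp9 and Irgm1 kept the call in all 24. Gbp2 and Gbp3 kept it in 23 and Gbp6 in 21. Igtp (1.41 ± 0.31, adjusted p = 0.0357) and Gbp5 (1.70 ± 0.40, adjusted p = 0.0480) were near the threshold. Of the 12 fits with 1 library left out, Igtp kept the call in 4, those without either LSD1WT ligated femur library, LSD1WT femur unligated replicate 2 or LSD1cKO mandible replicate 1, and Gbp5 in 1, without LSD1cKO mandible replicate 1. Both had their highest adjusted p without LSD1cKO mandible replicate 2, at 0.0918 for Igtp and 0.127 for Gbp5.

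The other 3 members did not pass. Irgm2 was at 1.34 ± 0.33 (adjusted p = 0.0564), Iigp1 at 2.12 ± 0.61 (adjusted p = 0.0989) and Gbp7 at 0.82 ± 0.32 (adjusted p = 0.230). The count of 7 fell to 3 (Gbp2, Gbp9 and Irgm1) without LSD1cKO femur ligated replicate 2, and to 3 (Gbp3, Gbp9 and Irgm1) when the library with conflicting labels was treated as femur. It was 9 without both femur LSD1WT replicate 2 libraries. The shares of all genes called higher in these fits were 1.75%, 2.03% and 14.4%.

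**Figure D2:**
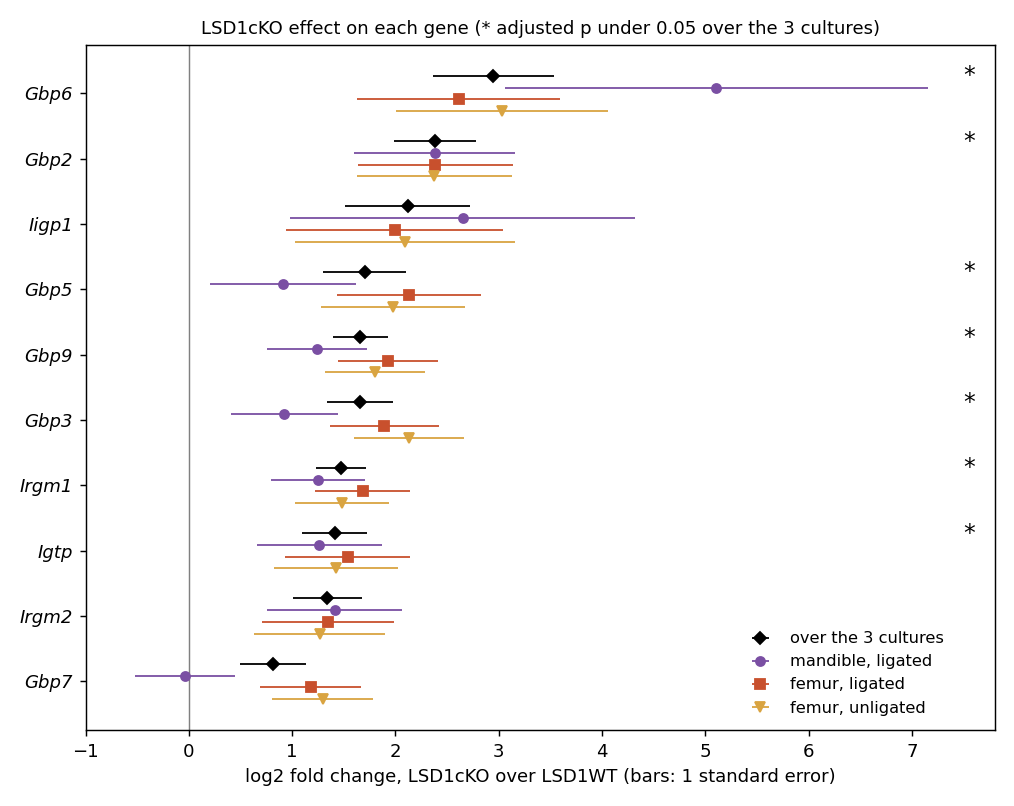
Log2 fold change of LSD1cKO over LSD1WT with its standard error for each member, over the 3 cultures and in each culture, with an asterisk where the adjusted p is under 0.05 (7 genes, all in the fit over the 3 cultures). The values of Gbp6 and Iigp1 in the mandible rest on libraries with 0 to 15 counts, and Gbp7 is the only member with a mandible value near 0.

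Within single cultures, with 2 libraries against 2, no member passed an adjusted p of 0.05, and no gene of the whole table was called higher in any of the 3. In the mandible, 4 members had an unadjusted p under 0.05 (Gbp2, Gbp6, Gbp9 and Irgm1), where 3.81% of all genes were higher with such a p. All 10 mandible reads of Gbp6 came from LSD1cKO replicate 2, so its genotypes overlapped. In ligated and unligated femur, the same 8 members had an unadjusted p under 0.05 (all but Irgm2 and Iigp1), against 3.91% and 3.61% of all genes. DESeq2 called 0, 3 (Gbp3, Gbp9 and Irgm1) and 1 (Gbp3) members in the 3 cultures at an adjusted p under 0.05, against 0.931%, 1.13% and 0.726% of the genes to which it gave an adjusted p. The median log2 fold changes were 1.26 in mandible (1.25 with Gbp6 at its bound), 1.91 in ligated femur and 1.89 in unligated femur.

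LSD1cKO libraries lay above both LSD1WT libraries for 7 members in the mandible, for 10 in ligated femur and for 10 in unligated femur. The shares of all genes were 34.1%, 14.8% and 9.82%. For 7 members this held in every culture (Gbp2, Gbp3, Gbp5, Gbp9, Igtp, Irgm1 and Irgm2), as it did for 5.17% of all genes. Without both femur LSD1WT replicate 2 libraries, the calls at an adjusted p under 0.05 numbered 5, 9 and 4, where 5.13%, 6.89% and 2.14% of all genes were called higher, and the median in ligated femur was 3.06 in place of 1.91. When the 4 mandible libraries were fitted alone, 8 members could be tested and 6 were called higher (Gbp2, Gbp3, Gbp9, Igtp, Irgm1 and Irgm2), but that fit called 19.2% of all genes higher and 18.6% lower.

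The genotype effect itself was then compared between cultures. No member passed the test of a difference between mandible and ligated femur, or between ligated and unligated femur, and none had an unadjusted p under 0.05 in either, by edgeR or by DESeq2. Among all genes tested, 0.558% showed a larger and 0.408% a smaller effect in mandible at that unadjusted threshold, and for the ligature the shares were 0.136% and 0.207%. The median differences were −0.35 and 0.04 on the log2 scale. Gbp7, which did not separate the genotypes in the mandible, had an effect that was smaller there by 1.21 (unadjusted p = 0.114), and Gbp5 one that was smaller by 1.22 (unadjusted p = 0.245). Without both femur LSD1WT replicate 2 libraries the medians became −1.72, with 7 members at an unadjusted p under 0.05 (3.75% of all genes in that direction), and 1.16, with 5 such members (3.76%), and none passed the adjusted threshold.

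The skeletal sites were compared within each genotype. In ligated mice, each of the 10 members was lower in mandible than in femur cultures in both genotypes, and in neither genotype did the sites overlap. Of all genes, 31.5% were lower in mandible without overlap in LSD1WT and 35.0% in LSD1cKO. In LSD1cKO, Gbp2 was 22.5 times higher in femur, Irgm2 11 times, Irgm1 6.22 times and Gbp7, with the narrowest gap, 4.51 times. In LSD1WT the same genes were 22.5, 11.6, 4.62 and 1.94 times higher, and 7.30, 4.33, 2.54 and 1.80 times with femur replicate 1 alone. The LSD1WT folds of the other members with replicate 1 alone were 1.96 (Gbp3), 4.11 (Gbp5), 2.13 (Gbp9) and 2.19 (Igtp).

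Iigp1 had the widest, 119-fold in LSD1cKO. In LSD1WT 327 Iigp1 counts in femur stood against 2 in mandible, a ratio of 168 after depth correction with an exact interval for counting error from 46.1 to 1392. Of those counts 288 came from femur replicate 2, and replicate 1 alone, with 39, gave a ratio of 32.6 (8.45 to 279). Gbp6 was 27.7 times higher in femur in LSD1cKO and at least 6.08 times in LSD1WT, or at least 3.34 times with replicate 1 alone. The median log2 difference between mandible and femur was −2.75 in LSD1WT (−2.59 with Gbp6 at its bound) and −3.18 in LSD1cKO.

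In the 6-condition fit none of these site differences passed an adjusted p of 0.05, although 9 members in LSD1WT and 10 in LSD1cKO had an unadjusted p under 0.05, where 14.7% and 6.81% of all genes were lower with such a p. By the labels, the LSD1cKO libraries of both sites came from the same 2 mice. Deviations of these same-mouse libraries from their condition means correlated at only 0.026 between the sites. With the mouse as a block 10 of 10 members were called lower in mandible, in a fit that called 19.0% of all genes lower and 19.2% higher. DESeq2 called 9 members in LSD1WT and 10 in LSD1cKO, against 7.42% and 3.03% of the genes with an adjusted p. Without LSD1WT femur ligated replicate 1, the LSD1WT femur side was replicate 2 alone, the library almost without osteoclast RNA. The LSD1WT median was then −3.34, against −2.75 with both libraries. Leaving out LSD1WT ligated femur replicate 1 or 2 brought 8 LSD1cKO calls each, with 2.35% and 2.21% of all genes. The LSD1cKO calls numbered 2 and 3 without LSD1WT femur unligated replicate 1 and replicate 2, with 0.371% and 0.389% of all genes. Without the femur LSD1WT replicate 2 libraries the LSD1WT median was −1.66.

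The ligature comparison, in femur cultures, was small beside the site difference. In LSD1cKO the ligated libraries lay above the unligated ones for all 10 members, as for 14.0% of all genes, with a median log2 difference of 0.72, and none passed or had an unadjusted p under 0.05, by edgeR or by DESeq2, where 0.499% of all genes were higher with such a p. Fitting these conditions alone brought 7 members to an unadjusted p under 0.05, as for 1.86% of all genes, and none to the adjusted threshold. In LSD1WT the median was 0.83, and the groups failed to overlap for 2 members (Gbp6 and Gbp7), against 5.25% of all genes, with 1 unadjusted p under 0.05 (Gbp3), as for 0.454% of all genes. That direction rested on 1 library, since the median was −0.47 without LSD1WT femur ligated replicate 2.

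Ranked by mean level, 8 of the 10 members had the same order of conditions: LSD1WT mandible, LSD1cKO mandible, LSD1WT femur unligated, LSD1WT femur ligated, LSD1cKO femur unligated and, highest, LSD1cKO femur ligated. The exceptions were Gbp3, whose LSD1WT unligated femur mean was below its LSD1cKO mandible mean, and Gbp7, whose mandible conditions were exchanged. The first and second places, LSD1cKO femur ligated and LSD1cKO femur unligated, were the same for all 10. Neighbours in the order often overlapped: the 2 LSD1WT femur conditions did so for 7 of these 8 members, Gbp6 being the exception, and LSD1WT femur ligated overlapped LSD1cKO femur unligated for Gbp2, Gbp5, Gbp7, Irgm2 and Iigp1. With LSD1WT femur replicate 1 alone, 6 members had LSD1WT femur ligated below LSD1WT femur unligated with the other places as above.

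The pair of LSD1WT ligated femur libraries carried much of the spread. All 9 members with at least 50 counts in that pair were higher in replicate 2, the library almost without osteoclast RNA, by 1.16 (Gbp7) to 11.7 times (Iigp1), with a median of 3.14. In unligated LSD1WT femur, where replicate 2 also lacked osteoclast RNA, the members did not move one way: 4 of 9 were higher in it, and the ratio between the libraries ran from 1.29 to 3.39. The LSD1cKO ligated femur pair differed by at most 1.5 times and the LSD1WT mandible pair by at most 1.30 times. In LSD1cKO mandible all 8 members with enough counts were higher in replicate 2, by 1.19 to 2.64 times.

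The summed level of the 10 members put both genotypes on 1 scale. It was 67.7 and 73.8 CPM in LSD1WT mandible against 94.7 and 146 CPM in LSD1cKO mandible, 163 and 423 against 887 and 999.7 CPM in ligated femur, and 191 and 181 against 638 and 485 CPM in unligated femur. Every LSD1cKO femur library thus exceeded every LSD1WT library. Summed osteoclast genes did not follow this order, as they were at 30151 to 30260 CPM in LSD1WT mandible and 17710 to 17818 CPM in LSD1cKO mandible, and at 20938 to 23732 CPM in LSD1cKO ligated femur.

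Levels of different members can be compared only per length. In CPM per kilobase of exon, Gbp7 was the highest member in LSD1WT mandible cultures (6.0 and 6.41), followed by Irgm1 (2.27 and 2.55). In LSD1cKO ligated femur Gbp2 was the highest, at 56.0 and 59.7 CPM per kilobase, on a mean that was 57.8 there and 0.493 in LSD1WT mandible. Irgm1 was at a mean of 35.7, Irgm2 at 31.3, Gbp3 at 31.1, Igtp at 27.9 and Gbp7 at 27.3 CPM per kilobase in the same condition. Gbp5 and Iigp1 were lower, at 7.19 and 5.46, and Gbp6 was at 0.718. The make-up of the set therefore shifted from Gbp7 towards Gbp2 between the lowest and the highest condition.

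**Figure D3:**
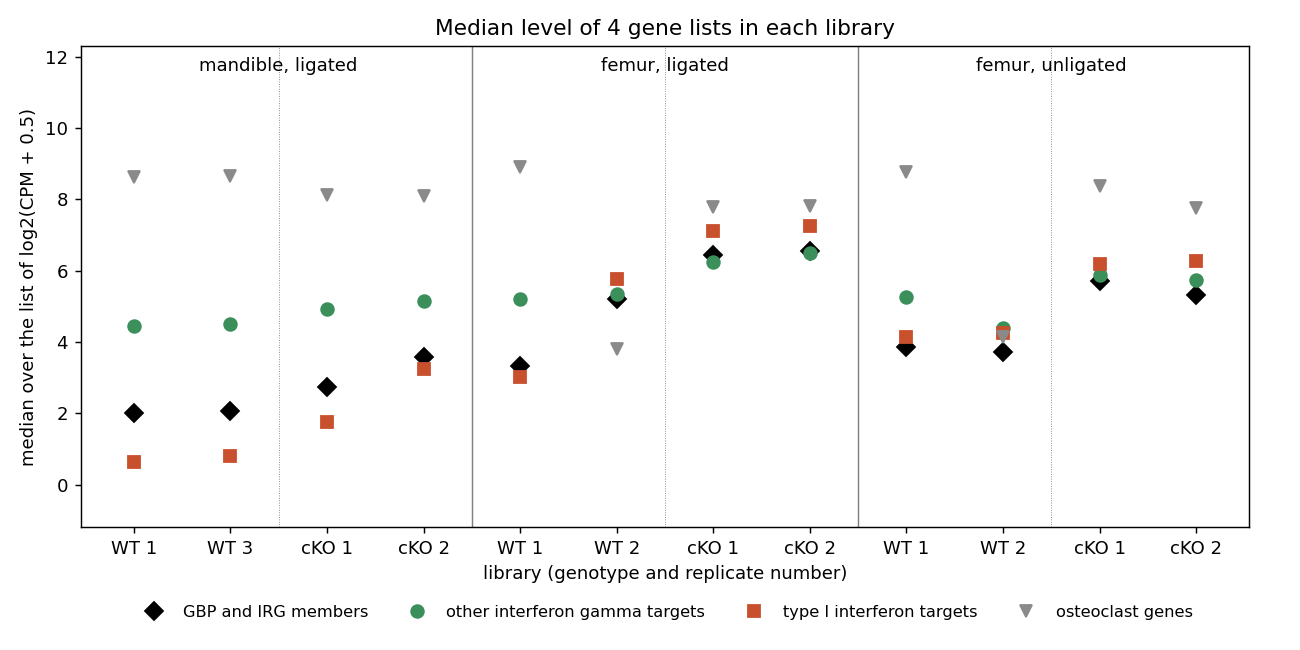
Median log2(CPM + 0.5) of the 10 members and of 3 other gene lists (other interferon gamma targets, type I interferon targets and osteoclast genes) in each of the 12 libraries. The members and the type I targets are lowest in LSD1WT mandible and highest in LSD1cKO ligated femur, and the osteoclast genes drop in the LSD1WT femur replicate 2 libraries.

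The rest of the 2 families was examined next. Of 11 GBP genes, 9 were tested, all 9 were higher in LSD1cKO over the 3 cultures, and 7 were called. Besides the members these were Gbp4 and Gbp8, of the chromosome 5 cluster. Gbp4 was at 1.35 and 1.10 CPM in LSD1WT mandible against 1.75 and 3.28 CPM in LSD1cKO, at 2.88 and 2.31 against 20.0 and 26.6 CPM in ligated femur, and at 3.47 and 0.663 against 10.4 and 8.83 CPM in unligated femur. Unlike the members, Gbp4 was not higher in LSD1WT femur ligated replicate 2 than in replicate 1. Its log2 fold change was 2.16 (adjusted p = 0.0269), and that of Gbp8 was 1.74 (adjusted p = 0.0405). Gbp2b, at no more than 28 counts, was at 2.63 (adjusted p = 0.103), and Gbp10 and Gbp11 had at most 5 counts and were not tested.

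Of 15 IRG genes 14 were tested, 13 were higher in LSD1cKO and 6 were called, namely Irgm1, Igtp, Ifi47, Tgtp1, Tgtp2 and Gm12250. Ifi47 (also Irg47), an effector, was at 4.04 and 4.37 against 10.3 and 18.3 CPM in mandible, 13.2 and 64.6 against 141 and 203 CPM in ligated femur, and 24.2 and 24.8 against 71.8 and 91.5 CPM in unligated femur (log2 fold change 1.89, adjusted p = 0.0121). Tgtp2, a T-cell-specific GTPase by name and a vacuole effector, was at 0.122 and 0.147 against 0.756 and 2.38 CPM, 1.26 and 8.67 against 41.2 and 56.5 CPM, and 3.28 and 2.57 against 18 and 29.2 CPM in the same order. Its log2 fold change of 3.23 (adjusted p = 0.00503) exceeded that of every member, as did 3.21 for Tgtp1 (adjusted p = 0.0110), a near-identical copy whose reads cannot be separated from it with certainty.

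Gm12250 (also Irgb10), which acts with GBPs on bacteria, was at 1.95 (adjusted p = 0.0465). In 9930111J21Rik1, 9930111J21Rik2 and Gm5431 the genotypes overlapped in both femur cultures but not in mandible. The mandible ratios of LSD1cKO to LSD1WT were 2.83, 3.99 and 3.87 in that order. Their log2 fold changes over the 3 cultures reached 1.82, 1.93 and 2.62 in other settings of the fit. 9930111J21Rik2 was at 14 and 110.3 CPM in LSD1WT ligated femur against 72.8 and 55.5 CPM in LSD1cKO, and at 0.57 over the 3 cultures (adjusted p = 0.710). 9930111J21Rik1 (0.49, adjusted p = 0.728) and Gm5431 (1.06, adjusted p = 0.447) were likewise high in LSD1WT femur ligated replicate 2, at 36.5 and 73.2 CPM. Gm4951 was at 1.86 (adjusted p = 0.221) and F830016B08Rik at 1.85 (adjusted p = 0.368), and neither overlapped between genotypes in femur cultures.

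Irgq, a divergent member of the family, was the one IRG gene that was lower in LSD1cKO, at −0.48 (adjusted p = 0.200). Irgc1, a testis gene, had at most 5 counts. Among 3 very large interferon-inducible GTPases, Gvin1 and Gvin2 were called higher (1.64 and 1.65, adjusted p = 0.0391 and 0.0430) and Gvin3 was at 1.12 (adjusted p = 0.0786). Of the calls outside the members, Ifi47, Tgtp1 and Tgtp2 held in all 12 fits that left out 1 library, whereas Gbp4 held in 5 and Gbp8, Gm12250, Gvin1 and Gvin2 in 3 each. The GBP count ranged from 2 of its genes, without LSD1cKO femur ligated replicate 2, to 8 by DESeq2.

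**Figure D4:**
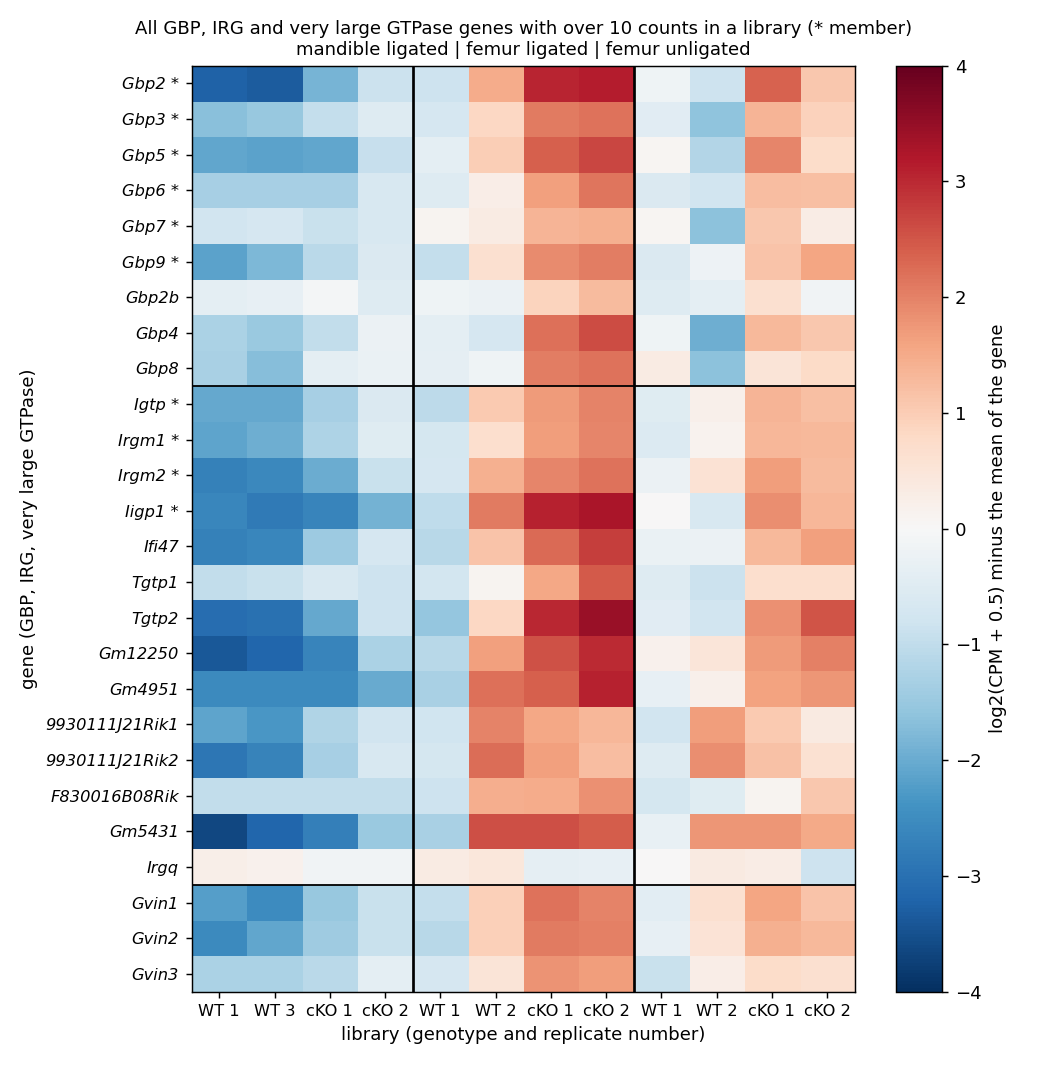
Log2(CPM + 0.5) of 26 GTPase genes (9 GBP, 14 IRG and 3 very large GTPase genes) in the 12 libraries, each gene minus its own mean. Most rows are lowest in LSD1WT mandible and highest in LSD1cKO ligated femur, Irgq is not, and 9930111J21Rik1, 9930111J21Rik2 and Gm5431 are also high in the LSD1WT femur replicate 2 libraries.

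Genes of the interferon gamma pathway itself had a smaller median difference than the GTPases. Ifng had 0 counts in all 12 libraries, which allows up to 3 counts in each, and Ifnb1, the type I ligand, had at most 6 counts (0.263 CPM). The receptor chains Ifngr1 and Ifngr2 were at log2 fold changes of 0.18 (adjusted p = 0.824) and 0.09 (adjusted p = 0.717). For Ifngr1 the LSD1cKO mean was 1.65 times the LSD1WT mean in mandible, without overlap. In ligated and unligated femur the ratios were 0.911 and 0.963, with overlap. Its log2 fold change ran from 0.10 to 0.71 in other settings of the fit. Of 13 signalling genes tested, 9 were higher and 3 were called, Socs1 and Nlrc5 among them, with a median of 0.47. That median was 0.87 without both femur LSD1WT replicate 2 libraries. Of 10 type I ligand and receptor genes 3 were tested and none was called, by edgeR or by DESeq2, with 1 higher at an unadjusted p under 0.05. This depended on the fit, since all 3 were called by voom with library quality weights. In 24 other settings the number of signalling genes called ran from 1, without LSD1cKO femur ligated replicate 2, to 7, without both femur LSD1WT replicate 2 libraries.

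Socs1, a feedback inhibitor of the receptor's kinases, rose by 1.17 ± 0.23 (adjusted p = 0.0199), a call lost only without LSD1cKO femur ligated replicate 2 (adjusted p = 0.0514). Irf1 was at 18.9 and 20.2 against 29.2 and 33.3 CPM in mandible, 43.6 and 104 against 112 and 122 CPM in ligated femur, and 59.8 and 60.3 against 101 and 72.6 CPM in unligated femur. Its log2 fold change of 0.62 ± 0.19 did not pass (adjusted p = 0.110), although the genotypes did not overlap in any culture. Irf8, a myeloid factor that works with Irf1 at such promoters, reached 232 and 173 CPM in the LSD1WT femur replicate 2 libraries, above the 49.3 to 84.5 CPM of the LSD1cKO femur libraries, and was at −0.29 ± 0.58 (adjusted p = 0.872).

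Other targets of the 2 interferon types were set beside the members. Of 23 other interferon gamma targets tested, 21 were higher and 7 were called (Cxcl9, Cxcl10, Ido1, Cd74, Psmb8, Psmb9 and Tap1), with a median log2 fold change of 0.78. Of 25 type I targets all 25 were higher and 19 were called, with a median of 2.19. The members, at 1.66, lay between the 2 lists, and this order is a description, since the lists were chosen with earlier results of these data known. Without both femur LSD1WT replicate 2 libraries the medians were 0.97 for the other interferon gamma targets, 1.95 for the members and 2.96 for the type I targets. The calls ranged from 2 to 16 of the first list and from 5, with the conflicting library as femur, to 25 of the second in the other settings, both highest without the femur LSD1WT replicate 2 libraries. The lowest value of the first list came without either LSD1WT mandible library, without either LSD1cKO ligated femur library and with the LSD1WT mandible pair summed.

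Among the type I targets, Isg15, a ubiquitin-like modifier, rose by 2.65 ± 0.41 (adjusted p = 0.00646). Ifit1, which binds foreign RNA, rose by 2.59 ± 0.45 (adjusted p = 0.0114), and Oasl2 by 2.52 ± 0.59 (adjusted p = 0.0453, held in 4 of 12 fits with 1 library left out). Mx1, itself a dynamin-like GTPase, was at 1.83 ± 0.46 (adjusted p = 0.0582). Ifit1 showed the site gap of the members, at 0.490 and 0.660 against 1.82 and 5.38 CPM in mandible and at 7.11 and 53.8 against 159 and 211 CPM in ligated femur. Between mandible and ligated femur the type I targets had medians of −4.69 in LSD1cKO and −4.55 in LSD1WT, the latter −2.75 without the femur LSD1WT replicate 2 libraries. Those of the other interferon gamma targets were −1.84 in LSD1cKO and −0.70 in LSD1WT, or −0.77 without these libraries.

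Few of the genes that act with the GTPases were called. Of 16 genes of vacuole targeting and its autophagy machinery, 3 were higher and 13 lower, with a median of −0.14. Rnf213, a large ubiquitin ligase, was called higher and Map1lc3a, an LC3 isoform, lower, as were 0.532% of all genes. Atg5, needed to conjugate LC3, was at 0.15 (adjusted p = 0.580). Of 11 genes of the inflammasomes that GBPs feed, 9 were higher and 2 were called (Casp1 and Zbp1), with a median of 0.42. Casp4, the sensor of cytosolic lipopolysaccharide, was at 0.67 (adjusted p = 0.436) and Aim2, a DNA sensor, at 0.42 (adjusted p = 0.239).

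Of 7 genes of prenylation, the step that gives GBPs their lipid anchor, 1 was higher and none was called, by edgeR or by DESeq2, with 1 lower at an unadjusted p under 0.05. Fntb and Pggt1b, the beta subunits of protein farnesyltransferase and a related prenyltransferase, were at −0.12 (adjusted p = 0.845) and −0.15 (adjusted p = 0.659). For Fntb the LSD1cKO mean was 1.25 times the LSD1WT mean in mandible and 0.810 times in ligated femur, both without overlap. In unligated femur its ratio was 0.769, with overlap. With voom and library quality weights, 1 gene of the prenylation list was called. The inflammasome count was 0 without LSD1cKO mandible replicate 2 and 9 without the femur LSD1WT replicate 2 libraries. Rnf213 was the only targeting gene called higher, and no gene of that list was called higher without LSD1cKO mandible replicate 2, LSD1WT femur ligated replicate 2, either LSD1cKO ligated femur library, LSD1WT femur unligated replicate 1 or LSD1cKO femur unligated replicate 1.

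The members varied together across libraries. Over the 45 pairs of members Pearson's r of log2 CPM over 12 libraries ran from 0.715 to 0.994 with a median of 0.955, and from 0.511 to 0.991 with a median of 0.913 once culture means were removed. Without the femur LSD1WT replicate 2 libraries it ran from 0.894 to 0.997 over the other 10 libraries. The points share 3 mice, the 6 conditions and, for neighbouring genes, some reads. Of all genes tested, those most like the mean of the members were Ifit1 (r = 0.990), Ms4a4c (0.989), Samd9l (0.985), Herc6 (0.984), Ifi47 (0.984), Epsti1 (0.984), Parp9 (0.984) and Ifit1bl1 (0.984). With culture means removed their r ran from 0.957 to 0.987. The top 8 depended on the measure, as 1 of these genes stayed in it with Spearman's rho, 2 with culture means removed and 3 without the LSD1WT femur replicate 2 libraries. Irf1 was at 0.961, Irf8 at 0.713 and Kdm1a at −0.627, or −0.881 with culture means removed. For Irf8, r was 0.989 without the LSD1WT femur replicate 2 libraries and 0.287 with culture means removed.

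Markers of other cells were measured in the same libraries, since such cells could carry these genes or their inducers. Summed macrophage markers were at 14936 and 11895 CPM in the LSD1WT femur replicate 2 libraries and between 1852 and 5217 CPM elsewhere. Of 25 T and NK cell genes 6 were tested, with Lck called higher. The summed level of the 25 was higher in LSD1cKO than in LSD1WT in each culture, without overlap. LSD1WT libraries were at 14.3 and 15.0 CPM against 31.1 and 36.3 CPM for LSD1cKO in mandible. The values were 22.3 and 44.5 against 54.8 and 46.6 CPM in ligated femur, and 27.3 and 35.0 against 40.9 and 46.1 CPM in unligated femur. Within this list Gzma, Gzmb, Prf1 and Ifng, genes of activated T and NK cells, were at 0 in all 12 libraries, unlike the list as a whole. Dendritic markers were at 84.4 to 472 CPM in LSD1WT and 106 to 371 CPM in LSD1cKO, neutrophil markers at 136 to 435 and 168 to 368 CPM (Cebpe called higher), and B cell markers at 10.4 to 239 and 14.3 to 59.2 CPM. Stromal markers were at 7.95 to 78.5 CPM over all libraries. In mandible they were lower in LSD1cKO (33.8 and 28.0 CPM) than in LSD1WT (78.5 and 73.6 CPM). In both femur cultures the genotypes overlapped, and Runx2 was called higher over the 3 cultures. Mast cell and basophil markers were at no more than 10.4 CPM and erythroid markers at no more than 3.95 CPM. The part of these cells in the values of the members was not tested.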

How the data were processed

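PolyA RNA was measured in 12 preosteoclast libraries, grouped by title into 6 conditions of 2. The authors deposited whole-number read counts per Ensembl gene, with no normalization, filter or pooling found in the values. The submitters' processing notes name HISAT2 2.1.0, FastQC, featureCounts and edgeR, and build GRCm39. The annotation release and strand setting are not given in the sources used here, so reads of overlapping genes cannot be separated. Totals were 21375805 to 32526751 counts (median 26364586). A count of 0 allows up to 3 counts, and limits and intervals cover counting error only.

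The fits were made with edgeR 4.0.16 in R 4.3.3: filterByExpr kept 15425 of 57010 genes, libraries were scaled by TMM, and quasi-likelihood tests used 1 coefficient per condition, or culture plus genotype for the comparison over the 3 cultures. Benjamini-Hochberg adjustment ran over all genes tested, with a threshold of 0.05. CPM values use TMM-scaled library sizes. The common biological coefficient of variation was 0.419. The fit was tested on simulated data with known changes. P-values measure the spread between libraries, and 3 mice gave 2 libraries each.

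The members and gene lists were chosen with earlier results of these data known. All members and family genes are named, the other genes are named by their role, and the 8 most similar genes by Pearson's r. Exon lengths and chromosomes came from GENCODE vM21 and promoters from RefSeq, both on GRCm38 rather than the authors' build. Alternatives used DESeq2 1.42.0, limma 3.58.1 with voom, other scalings and filters, left-out libraries, other label readings, and blocks by replicate or mouse. The mean of the 3 culture contrasts was added after seeing the data. Values of 1 signalling gene are not reported here.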

Additional observations from a re-analysis of the deposited data

How the results depend on the processing

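Leaving out 1 library at a time left a condition with 1 library, which was assumed to vary like the others. The number of members called then ran from 3 to 8 over the 3 cultures, 0 to 0 in mandible, 0 to 1 in ligated femur, 0 to 0 in unligated femur, 0 to 9 for the site difference in LSD1WT and 0 to 8 in LSD1cKO. It stayed from 0 to 0 for the differences of the genotype effect and for the ligature. Median log2 fold changes ran from 1.52 to 1.84, 0.75 to 1.60, 1.32 to 2.98 and 1.56 to 2.55 for the genotype comparisons in that order, from −3.34 to −1.69 and −3.74 to −2.87 for the site in LSD1WT and LSD1cKO, from −0.47 to 1.54 and 0.58 to 1.00 for the ligature, and from −1.66 to 0.22 and −0.57 to 1.12 for the mandible-minus-femur and ligated-minus-unligated differences of the genotype effect. The last median was also −0.00017 without LSD1cKO femur ligated replicate 2, −0.43 without LSD1WT femur unligated replicate 1 and −0.29 without LSD1cKO femur unligated replicate 2. Gbp7 in mandible, −0.04 as reported, ran from −0.15 to 0.096 with 1 library left out, where it was above 0 without LSD1WT mandible replicate 3 (0.041) and without LSD1cKO mandible replicate 1 (0.096), and was 0.033 with no filter beyond 1 count, 0.044 with the conflicting library as femur and 0.24 with a replicate block.

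The count over the 3 cultures was 3 with the conflicting library as femur, 4 as the mean of the 3 contrasts, 5 with the LSD1WT mandible pair summed and 6 with the replicate block. With mouse as a random block it was 5. The replicate numbers are shared by different mice across genotypes, and deviations of same-numbered libraries correlated between genotypes at −0.02 in ligated and 0.22 in unligated femur, so they were not taken as pairs. Between ligated and unligated LSD1WT femur, which come from different mice, they correlated at 0.78, both replicate 2 libraries being those almost without osteoclast RNA. Without both femur LSD1WT replicate 2 libraries the counts were 5, 9 and 4 in the 3 cultures and 10 for the LSD1cKO site, with medians of 3.06 for ligated femur, −1.72 and 1.16 for the differences of the genotype effect, −1.66 for the LSD1WT site and −0.48 for the LSD1WT ligature. DESeq2 called 3 members in ligated femur, 1 in unligated femur, 9 for the LSD1WT site and 10 for the LSD1cKO site. With no filter beyond 1 count these were 1 in ligated femur, 9 and 10 for the sites. The mandible count was 6 with its libraries alone and 6 with quality weights, and the LSD1cKO site count was 10 with its libraries alone, with the replicate block by mouse and with quality weights. These fits called from 18.1% to 20.8% of all genes in the direction of the members. Counts in this section without a share of all genes show how the fits differed, and are not a result about the members. Causes were not tested. Depth limits Gbp6 and Iigp1 in mandible, where single libraries held 0 to 15 counts.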
